A study of Mus musculus with 6 samples.

Results

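The Ly49 receptor family was examined here as 6 genes of the mouse NK gene complex, Klra1 (Ly49A), Klra3 (Ly49C), Klra4 (Ly49D), Klra7 (Ly49G), Klra8 (Ly49H) and Klra9 (Ly49I). They were chosen by symbol among the 31053 genes counted, which include 11 genes named Klra. Spleen cells of C57BL/6 mice were profiled by CITE-seq, which counts RNA molecules and antibody tags in the same cell by unique molecular identifiers (UMIs), with a panel of 34 antibodies. The labels name aged mice (20 months) injected with platelet factor 4 (PF4, a platelet chemokine, at 5 µg/mL), aged mice (20 months) injected with saline and young mice (3 months) injected with saline. All had 8 tail vein injections of 100 µL over 24 days, and each group's cells were pooled from 5 mice into 1 RNA and 1 antibody library. The barcodes in the deposited matrix end in 1, 2 or 3, and nothing read for this work says which ending belongs to which treatment. The libraries are therefore called 1, 2 and 3, and neither treatment nor age was compared. With 1 library per group there was no replicate check and no test. Intervals below are exact, at 95%, and cover only the error of counting.

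Of 29005 barcodes, 20161 were kept (4199 in library 1, 7511 in library 2 and 8451 in library 3), with a median of 3625 to 3765 UMIs per cell and 20032690 to 35697547 RNA UMIs per library. The libraries shared 68 barcode sequences. Clustering without any Klra gene gave 22 clusters, which were named from marker genes. The NK-like cluster held 487 cells (69, 115 and 303 by library), was led by Gzma, Ncr1 and Klrb1c, and had all 8 NK markers. All 8 were also found in the memory T-like cluster and in a cluster of cycling cells, at lower summed levels. The memory T-like cluster held 1884 cells (560, 997 and 327), of which 1281 were CD8a antibody positive and CD4 antibody negative. The naive CD8 T-like cells numbered 1189 and the B-like cells 7835. The libraries differed in makeup: the cluster of red cell precursors (erythroid-like, 399 cells) came almost wholly from library 1.

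Ly49 receptors are lectin-like proteins of the NK cell surface that bind MHC class I molecules. Ly49A, C, G and I carry an inhibitory motif in their cytoplasmic tail and recruit the phosphatase SHP-1. Ly49D and Ly49H are activating, lack that motif and signal through the adaptor DAP12 (Tyrobp), and Ly49H is known for recognising a protein of mouse cytomegalovirus. Each NK cell is known to transcribe its own subset of the genes, and subsets of memory CD8 T cells also carry inhibitory Ly49 receptors.

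The 6 genes lie on the minus strand of chromosome 6, with Klra10 between Klra7 and Klra3, within 343 kb between positions 130043731 and 130386874 of GRCm38. Klra4 is at 130043731 to 130067271, Klra8 at 130115226 to 130129898, Klra9 at 130178675 to 130193112, Klra7 at 130218605 to 130233322, Klra3 at 130323289 to 130337574 and Klra1 at 130363917 to 130386874. The RefSeq promoter windows (250 bases before to 50 after the start, GRCm38.p6) of Klra3, Klra4, Klra8 and Klra9 held an identical stretch of 17 bases. It was picked as the longest stretch that these windows share, so their sharing it was fixed by the choice. It is shown, in capitals, because 5 of the 6 members carry it or a near copy. It stood in 8 of 32851 windows in the genome (0.0244%), those of Klra6 and Klra17 among them. Nothing is read from how rare it is. Copies of 1 mismatch stood in the windows of Klra2 and Klra5. The capitals in the Klra7 line mark the same place with 1 mismatch.
Klra3 (chr6:130337597-130337671, minus strand): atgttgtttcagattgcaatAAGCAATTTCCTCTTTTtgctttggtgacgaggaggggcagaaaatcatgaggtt
Klra4 (chr6:130067277-130067376, minus strand): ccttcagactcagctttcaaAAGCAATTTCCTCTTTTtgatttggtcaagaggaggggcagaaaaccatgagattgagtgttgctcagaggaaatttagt
Klra7 (chr6:130233338-130233437, minus strand): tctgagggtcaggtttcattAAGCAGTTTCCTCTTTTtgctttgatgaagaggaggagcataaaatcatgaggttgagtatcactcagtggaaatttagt
Klra8 (chr6:130129905-130130004, minus strand): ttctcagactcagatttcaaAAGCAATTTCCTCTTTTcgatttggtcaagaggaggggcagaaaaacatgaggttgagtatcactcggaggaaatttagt
Klra9 (chr6:130193083-130193176, minus strand): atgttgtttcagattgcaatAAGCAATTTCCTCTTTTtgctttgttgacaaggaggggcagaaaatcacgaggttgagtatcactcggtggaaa
In the Klra1 window the nearest 17 bases had 7 mismatches. The Klra1 window alone among the members held ACCACA, the core of the Runx motif, on either strand (16.8% of all windows hold it), and GATAAG, the core of the GATA motif (7.44% of all windows). TCAAAG, the core of the Tcf motif, stood only in the Klra7 window among the members (16% of all windows). These matches are a description of letters in a window and not of binding.

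The genes are close relatives, which bears on every count below. In the GENCODE transcripts, the 15 member pairs were 74.5% to 96.2% identical (median 78.2%). Klra3 and Klra9 were the closest pair at 96.2%, followed by Klra8 and Klra9 at 90.6% and by Klra1 and Klra7 at 88.7%. Of 410 windows of 91 bases in the last 500 bases of the transcript, all were unique to the gene for Klra1, Klra4 and Klra8. The share was 92.0% for Klra3, 90.2% for Klra7 and 86.3% for Klra9, whose other windows also matched Klra10, Klra11-ps or Klra3. The other windows of Klra7 matched Klra13-ps, which is not among the 11 Klra genes counted. Reads that match more than 1 counted gene are not counted by Cell Ranger, so counts of Klra3 and Klra9 can be low by an unknown amount. Whether those of Klra7 are low was not tested. An order of members by CPM is an order of counted UMIs and not of transcripts.

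In NK-like cells the family was at 2354 CPM (UMIs of the genes, scaled to the UMI total of the same cells; interval 2287 to 2423), with 2256, 2382 and 2370 CPM in libraries 1, 2 and 3. Klra8, the activating receptor for cytomegalovirus, was at 476, 724 and 778 CPM (718 pooled). Klra4, the other activating member, was at 701, 803 and 595 CPM (657 pooled). The family total was thus close in all libraries, while Klra8 was lowest and Klra4 second highest in library 1.

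Among the inhibitory members, Klra7 (Ly49G) was at 463, 297 and 341 CPM in NK-like cells (351 pooled). Klra9 (Ly49I) was at 276, 250 and 351 CPM (317 pooled), and Klra3 (Ly49C) at 190, 182 and 231 CPM (214 pooled). Klra1 (Ly49A) was at 149, 126 and 74.0 CPM (97.5 pooled), lowest in library 3, which held most of the NK-like cells. The ratio of the highest to the lowest library was 2.01 for Klra1, 1.63 for Klra8, 1.56 for Klra7, 1.41 for Klra9, 1.35 for Klra4 and 1.27 for Klra3. The median gene had 1.32, and 5.32% of 3553 genes had a ratio of at least 2, against 1 of the 6 members. The activating members held 58.4% of the member UMIs in NK-like cells (interval 57.0 to 59.8), at 52.2%, 64.1% and 57.9% by library.

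**Figure D1:**
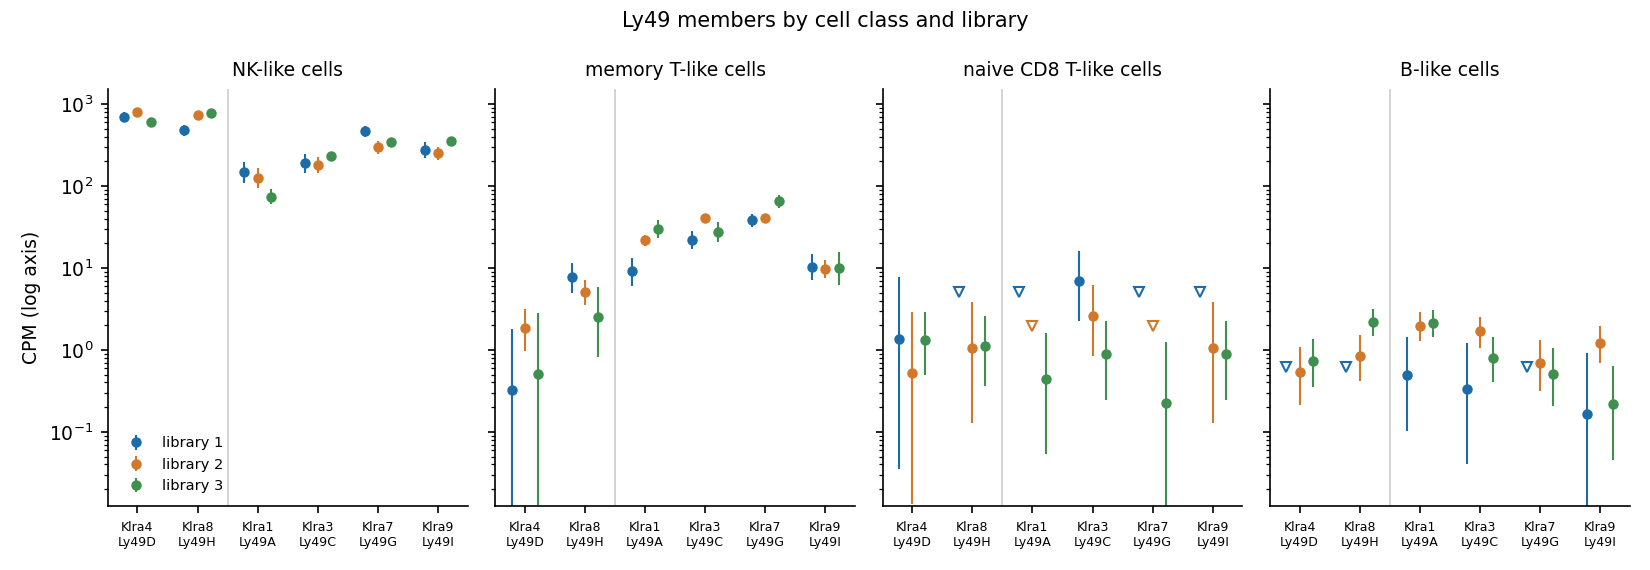
CPM (log axis) of each member in NK-like, memory T-like, naive CD8 T-like and B-like cells, with 1 point per library, bars for the exact Poisson interval and open triangles at the upper limit where a library had no UMI. All 6 members are highest in NK-like cells, and the step down to memory T-like cells is widest for the activating Klra4 and Klra8 in each library.

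At least 1 member UMI was found in 89.1% of NK-like cells (86.0 to 91.7), at 85.5%, 87.0% and 90.8% by library. The median depth of these cells was 3692 UMIs. After thinning to 1000 UMIs the share was 77.7% of 462 cells. B cells, which should lack the receptors, were taken as the background: 1.98% of B-like cells had a member UMI, or 0.589% after thinning, and the family was at 0.995, 6.93 and 6.58 CPM in them by library. Klra1 is an exception, since B-like cells held 11.1% of its UMIs (58 UMIs) against 1.19% to 3.69% for the other members, so its level there is not read as background. By member the NK-like shares were 60.6% for Klra8, 54.2% for Klra4, 45.2% for Klra7, 42.7% for Klra9, 32.6% for Klra3 and 13.6% for Klra1. A cell with the gene held on average 4.88 UMIs of Klra4, 4.77 of Klra8, 3.13 of Klra7, 2.99 of Klra9, 2.89 of Klra1 and 2.64 of Klra3.

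NK-like cells carried mixtures of the members. Of the 487 cells, 53 had no member UMI, 68 had 1 member, 103 had 2, 141 had 3, 97 had 4, 23 had 5 and 2 had all 6. The mean was 2.49 members per cell, or 1.48 after thinning to 1000 UMIs, so the count per cell depends on depth. Counting the cells with none, 57 combinations of the members were found. The most frequent with a member was Klra4 with Klra7 and Klra8 (36 cells), followed by Klra9 alone (25 cells) and by Klra3, Klra4, Klra8 and Klra9 together (24 cells).

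**Figure D2:**
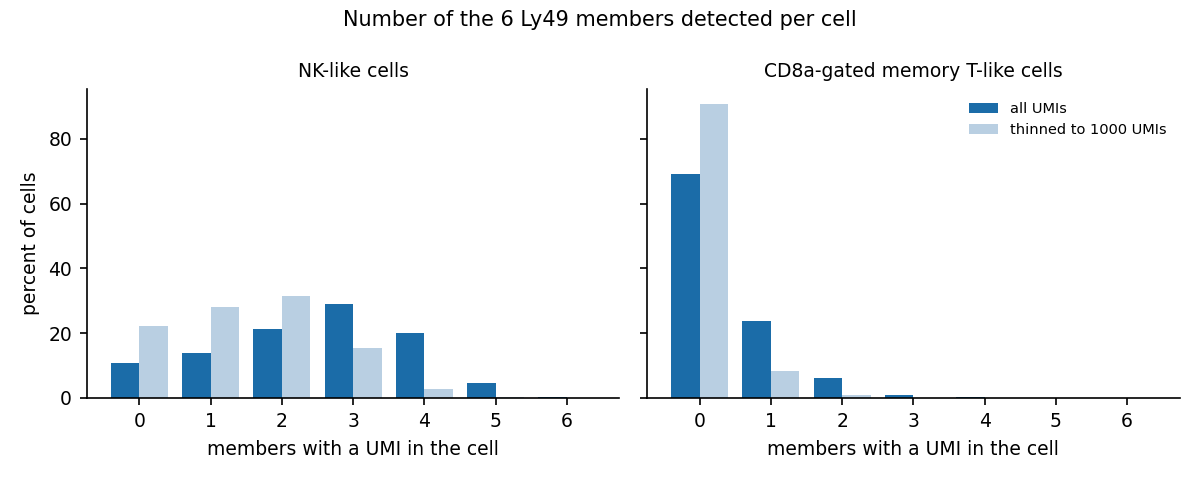
Share of cells (percent) by the number of members with a UMI in the cell, in NK-like cells and in CD8a antibody positive memory T-like cells, with all UMIs and after thinning to 1000 UMIs. NK-like cells peak at 3 members with all UMIs and at 2 after thinning, while most memory T-like cells have none.

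Pairs of members were next compared with the number of cells that their separate shares give within each library and depth quartile. In NK-like cells the 15 pairs together were found 1.11 times as often as that (1.05 to 1.17), with 1.18, 1.12 and 1.08 by library. After thinning to 1000 UMIs the ratio was 1.06. A cell with many members enters many pairs, so these counts are linked and the interval is not a firm limit on the ratio. Whether depth differences left within a quartile gave part of it was not tested. The activating pair Klra4 and Klra8 stood in 202 cells against 161 given by the shares, a ratio of 1.25 (1.09 to 1.44), with 1.37, 1.21 and 1.25 by library. It was the only one of the 15 pairs whose Poisson interval lay above 1. Klra7 with Klra8 was close, at 1.17 (0.997 to 1.37), as was Klra4 with Klra7, at 1.16 (0.979 to 1.38). This interval does not hold the 2 shares fixed, which makes it too wide to rank pairs near its edge. Of cells with Klra4, 76.5% also had Klra8, against 41.7% of cells without Klra4. The inhibitory pair Klra3 and Klra7 was lowest at 0.865 (0.665 to 1.11), with a Poisson interval that holds 1. Whether it departs from the separate shares was not tested with the shares held fixed.

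In memory T-like cells the ratio cannot be set against that of NK-like cells, because the shares of cells with a member limit how far it can go above 1 and are far higher in NK-like cells. All pairs together had a ratio of 1.87 (1.61 to 2.16), with 2.17, 1.81 and 1.84 by library, and the same limit holds for this interval. Klra7 and Klra9 had 2.89 (1.95 to 4.12), and Klra1 and Klra7 had 2.59 (1.89 to 3.47), with 45 cells against 17.4. Klra1 and Klra9 had 2.34 (1.12 to 4.31), with 10 cells, and Klra3 and Klra9 had 2.25 (1.31 to 3.61), with 17 cells. Klra3 and Klra7 were at 1.40 (1.02 to 1.88) and Klra1 and Klra3 at 1.11 (0.633 to 1.80), so 5 of the 6 inhibitory pairs had a pooled interval above 1. By library this was not even. In library 3 no cell held Klra9 together with Klra1 or with Klra3. The Klra3 and Klra7 interval held 1 in each library taken alone. The cluster holds parts with unlike levels of the members, described below, and the depth quartiles do not take that into account.

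**Figure D3:**
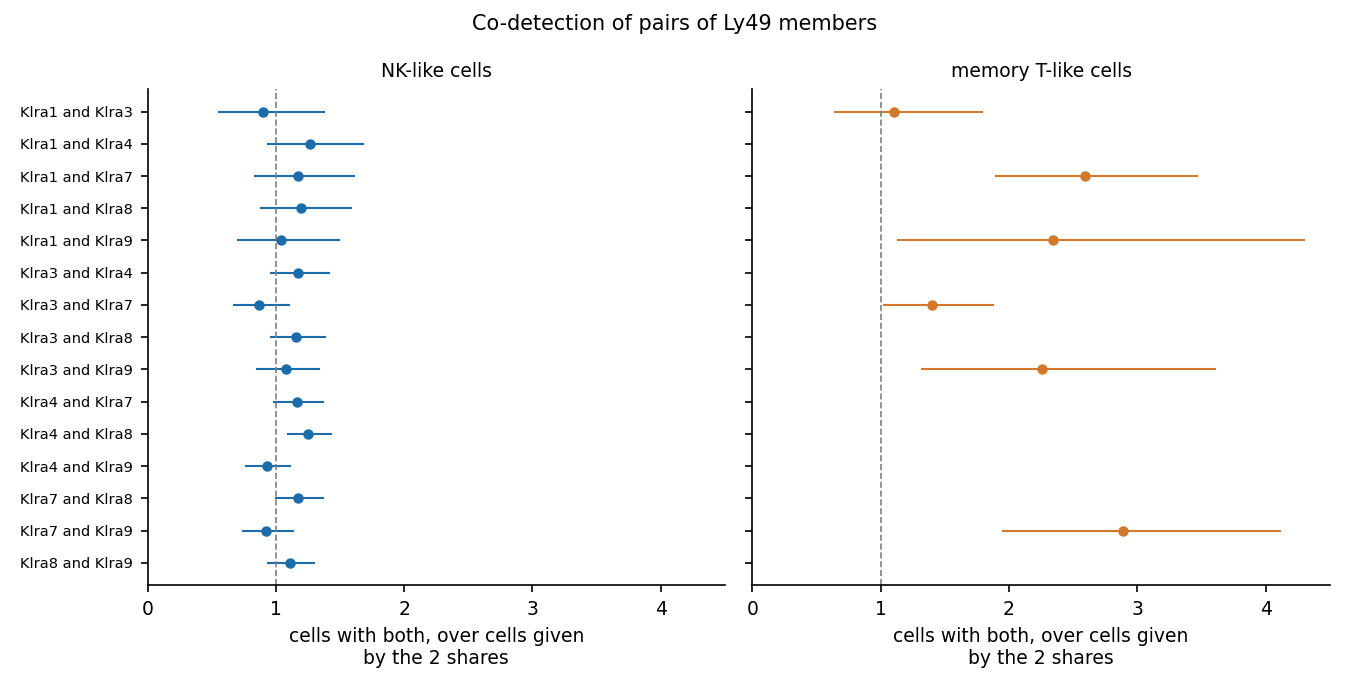
Cells with both members of a pair divided by the number given by the separate shares within library and depth quartile, for NK-like and memory T-like cells, with exact Poisson intervals and a dashed line at 1. Pairs with under 4 cells given by the shares are not drawn for memory T-like cells, and the highest drawn ratio is Klra7 with Klra9 at 2.89.

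NK cells mature from a CD27-high to a CD11b-high surface state. NK-like cells were split within each library into tertiles of the CD11b antibody relative to the CD27 antibody (163, 162 and 162 cells). The median CD11b count was 5, 13 and 24 and the median CD27 count 40, 16 and 7, while the median depth was 4918, 3694 and 3213 UMIs. The antibodies fixed the split and no RNA did. The family was at 1886, 2306 and 3125 CPM in the low, middle and high tertile, and 79.1%, 90.7% and 97.5% of cells had a member UMI, although the high tertile was the shallowest.

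Klra9 (Ly49I) and Klra3 (Ly49C) rose most, Klra3 more in libraries 1 and 2 and Klra9 more in library 3. Klra9 was at 192, 121 and 138 CPM in the low tertile of libraries 1, 2 and 3, at 265, 244 and 329 CPM in the middle tertile and at 427, 413 and 721 CPM in the high tertile. The high tertile lay above the low one in each library, by 2.22, 3.41 and 5.22 times (4.22 pooled). Klra3, its closest relative in sequence, was at 128, 53.8 and 161 CPM in the low tertile, at 159, 218 and 238 CPM in the middle tertile and at 337, 291 and 337 CPM in the high tertile. Its ratios of high to low tertile were 2.62, 5.41 and 2.10 (2.40 pooled). Of the 6 members, 2 were thus at least 2 times higher in every library, where 0.927% of 3884 genes were, and none was 2 times lower in every library, where 0.798% were.

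The activating members rose less. Klra8 had ratios of 1.94, 1.24 and 2.0 (1.81 pooled), and Klra4 had 1.69, 1.42 and 1.29 (1.41 pooled). The Klra8 interval in library 2 held 1 (0.924 to 1.67). Klra7 had ratios of 0.69 (0.445 to 1.04), 0.54 (0.326 to 0.871) and 0.99 (0.768 to 1.26) by library (0.81 pooled). Only in library 2 did the interval lie below 1. Klra1 was mixed, at 0.28 in library 1, 0.87 in library 2 and 1.57 in library 3 (0.91 pooled). In library 1 its UMIs came from 3 cells of the high and 10 cells of the low tertile.

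The same tertiles sorted the genes of NK maturation. Of 9 late genes, all 9 were at least 2 times higher in the high tertile of every library, with a median log2 ratio of 2.79 against 0.08 over all genes. Prf1 (perforin) was at 1139 CPM in the high and 303 CPM in the low tertile, the transcription factor Zeb2 at 1094 and 207 CPM, Ly6c2 at 1082 and 138 CPM and Gzmb (granzyme B) at 499 and 72.4 CPM. Of 10 early genes 6 were lower by the same rule, with a median of -1.98 over the 10. The late list holds Itgam, the gene of CD11b, and the early list holds Cd27. Their proteins set the tertiles, so nothing is read from their part in these counts. Cd7 was at 188 CPM in the high and 914 CPM in the low tertile and Ctla2a at 184 and 579 CPM, while Ltb and Xcl1 did not pass, at 140 and 589 CPM and at 142 and 526 CPM. Of 14 transcription factors tested, Zeb2 and Prdm1 were higher and Tcf7 and Ikzf2 (Helios) lower. Of 12 other NK receptors only Klrg1, a late inhibitory receptor, was higher, and of 13 adaptor and signalling genes none passed, with Tyrobp, the adaptor of Ly49D and Ly49H, at 2821 CPM in the high and 2226 CPM in the low tertile. Ptpn6, which encodes SHP-1, was at 122 and 145 CPM. None of 6 genes of MHC class I and its loading passed.

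**Figure D4:**
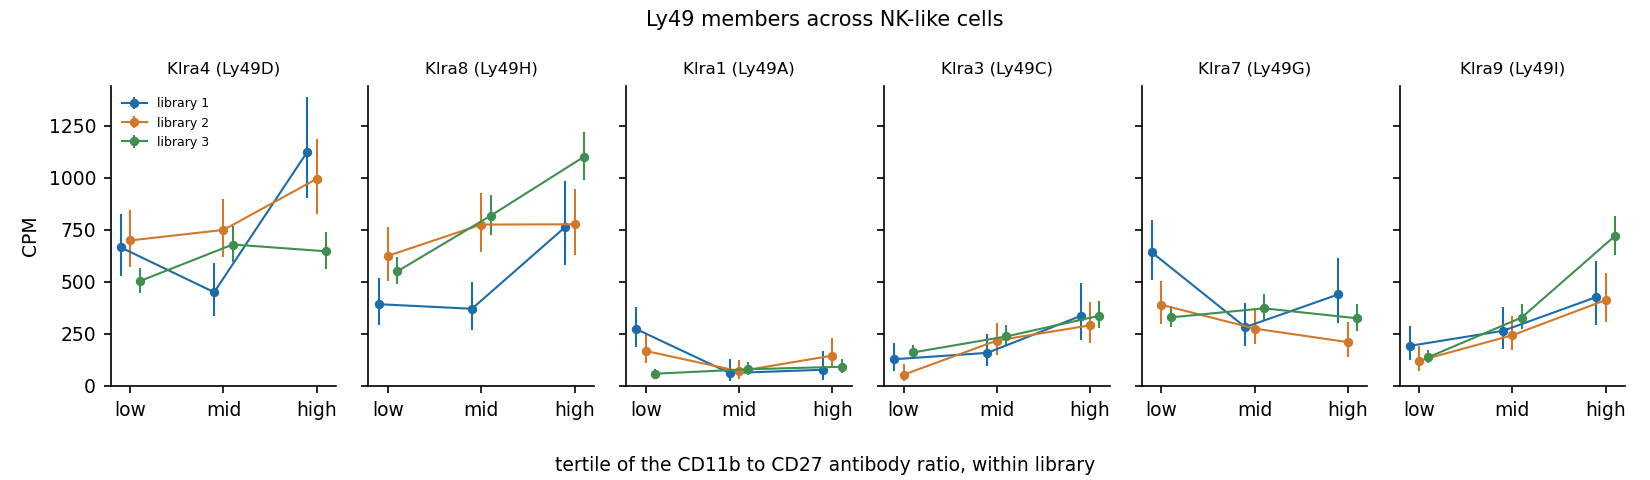
CPM of each member in the low, middle and high tertile of the CD11b antibody relative to the CD27 antibody in NK-like cells, with 1 line per library and bars for the exact Poisson interval. Klra9 and Klra3 are higher in the high than in the low tertile in all 3 libraries by at least 2.10 times. Klra7 is lower in library 2, and the intervals of its ratio in libraries 1 and 3 hold 1.

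Outside NK-like cells the family was mainly found in memory T-like cells, at 87.9, 119 and 136 CPM in libraries 1, 2 and 3 (114 pooled). NK-like cells lay 20.6 times higher in the pool (19.4 to 21.9). By library they lay 25.7 (22.3 to 29.6), 19.95 (18.2 to 21.9) and 17.5 (15.4 to 19.9) times higher, so the pooled interval does not cover the spread between libraries. All 6 members were at least 2 times higher in NK-like cells in every library, and 4.16% of 8387 genes were. Klra4, Klra8 and Klra9 were under 10 CPM in memory T-like cells and passed the filter only through NK-like cells, so nothing is read from their part of that count. The pooled ratio was 533 for Klra4, 134 for Klra8, 31.8 for Klra9, 7.98 for Klra7, 6.35 for Klra3 and 4.92 for Klra1. The Klra4 ratio rests on 15 UMIs in memory T-like cells, 13 of them in library 2. It was 2169, 437 and 1183 by library, and 1567 without library 2. Klra8 had 61.4, 142 and 309 by library. Both activating members had wider gaps than the 4 inhibitory members in every library. Klra1 had 16.5, 5.83 and 2.45 by library and 7.63 without library 3, and it was the narrowest only in library 3 and in the pool, while Klra3 was the narrowest in libraries 1 and 2 at 8.66 and 4.5.

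Klra7 was at 38.5, 40.6 and 64.9 CPM in memory T-like cells (44.0 pooled), and Klra3 at 21.98, 40.5 and 27.7 CPM (33.7 pooled). Klra1 was at 9.05, 21.6 and 30.2 CPM (19.8 pooled), with its lowest level in library 1, where its NK-like level was highest. Klra9 was even across libraries, at 10.3, 9.76 and 10.1 CPM. Klra8 was at 7.76, 5.09 and 2.51 CPM, and Klra4 at 0.32, 1.84 and 0.50 CPM, a level close to the 1.12 CPM found in naive CD8 T-like cells. The activating members held 5.77% of the member UMIs in memory T-like cells (4.6 to 7.13), against 58.4% in NK-like cells.

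Naive CD8 T-like cells had the family at 5.32 CPM in the pool, where B-like cells had 5.69 CPM with Klra1 included. By library they had 8.25, 5.24 and 4.89 CPM, above B-like cells in library 1 and below them in libraries 2 and 3. A member UMI was found in 26.4% of memory T-like cells against 2.69% of naive CD8 T-like cells. After thinning the shares were 8.65% and 0.422%. Memory T-like cells were 21.4 times higher in the pool (15.5 to 30.4), and 10.7, 22.8 and 27.8 times by library. The library 1 ratio rests on 6 member UMIs in naive CD8 T-like cells (interval 4.83 to 29.3). Only Klra1, Klra3 and Klra7 reached the 10 CPM that the call rule asks for, through their level in memory T-like cells. All 3 were at least 2 times higher in each library, and 3.68% of 7915 genes were, but with this filter the 3 had to differ and nothing is read from their count. The other 3 members were not compared by this rule. Klra7 had 0.14 CPM in naive CD8 T-like cells.

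Of all UMIs of a member in the kept cells of the pooled libraries, NK-like cells held 89.9% for Klra4, 84.3% for Klra8, 74.4% for Klra9, 52.9% for Klra7, 44.2% for Klra3 and 36.5% for Klra1. Memory T-like cells held 1.05% for Klra4, 3.90% for Klra8, 14.5% for Klra9, 41.1% for Klra7, 43.1% for Klra3 and 46.0% for Klra1. These shares follow the makeup of the pool and turn round between libraries. In libraries 1, 2 and 3 NK-like cells held 60.3%, 21.95% and 45% of the Klra1 UMIs and memory T-like cells 35.9%, 62.2% and 30%. For Klra3 the shares were 33.9%, 18.8% and 78.9% in NK-like cells and 38.4%, 68.8% and 15.4% in memory T-like cells, and for Klra7 they were 50.3%, 28.9% and 72.6% and 41.0%, 65.4% and 22.6%. Klra4 kept 88.0% to 90.7% of its UMIs in NK-like cells in every library, and Klra8 76.0% to 88.3%.

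Within the memory T-like cluster the antibodies set apart 3 main parts. The 1281 CD8a antibody positive, CD4 negative cells had the family at 115 CPM, with Klra7 at 40.1, Klra3 at 39.2, Klra1 at 17.9 and Klra9 at 10.0 CPM. By library they had 105, 115 and 146 CPM. The 302 cells negative for both antibodies had 195 CPM (173 to 219), with 92.3, 273 and 178 CPM by library, so they were above the CD8a positive cells in libraries 2 and 3 and below them in library 1. Their leading members were Klra7 at 110 CPM (46.2, 160 and 97.8 by library) and Klra1 at 50.8 CPM (14.2, 56.7 and 61.7), while Klra3 was at 15.8 CPM. The 252 CD4 antibody positive cells had the family at 14.2 CPM (7.92 to 23.4), in 8 cells. In the CD8a positive cells Klra7 was at 45.5, 34.3 and 63.1 CPM by library and Klra3 at 27.7, 42.3 and 46.8 CPM.

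**Figure D5:**
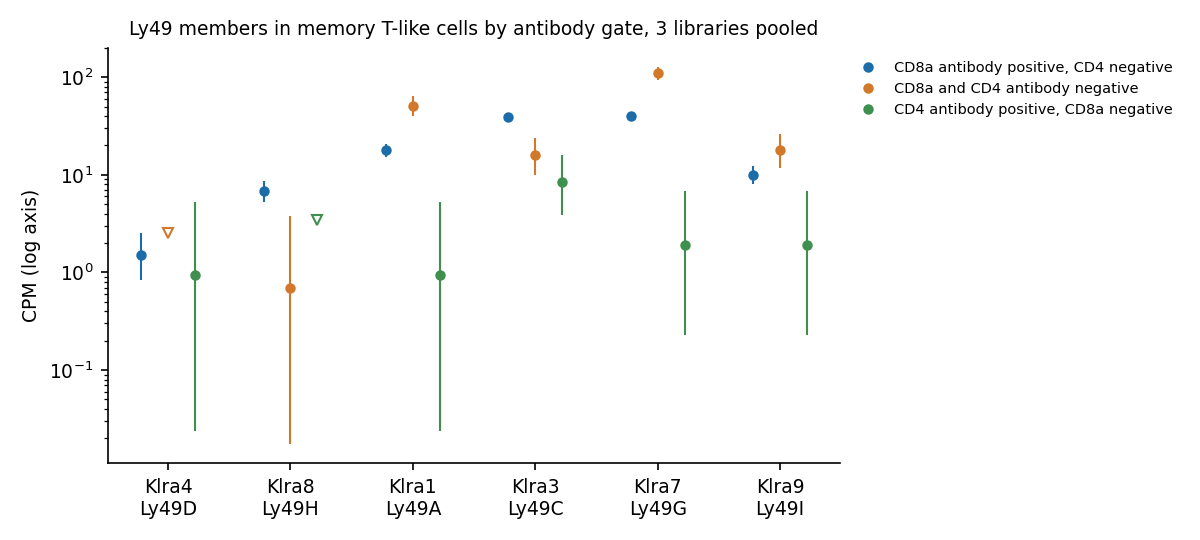
CPM (log axis) of each member in 3 parts of the memory T-like cells by antibody, libraries pooled, with exact Poisson intervals and open triangles at the upper limit where there was no UMI. Cells negative for both antibodies are highest for Klra7 (110 CPM) and Klra1 (50.8 CPM), and CD8a positive cells are highest for Klra3 (39.2 CPM). The 49 cells positive for both antibodies are not drawn.

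A finer clustering split the memory T-like cells mainly into a cluster of 1098 cells, with the family at 138 CPM, and a cluster of 633 cells led by Gzmk, at 34.04 CPM. By library the first had 133, 132 and 178 CPM and the second 23.5, 44.4 and 41.1 CPM. A member UMI was found in 38.0% of the first and 5.06% of the second.

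The CD8a positive memory T-like cells with a member UMI (395 cells, median 7968 UMIs) were compared with those without one (886 cells, median 6879 UMIs). The depths differ, and their part in what follows was not tested. Ikzf2, which encodes the transcription factor Helios and is known from CD8 T cells with Ly49 receptors, was at 86.2 CPM in cells with and 28.3 CPM in cells without a member UMI, or 3.71, 2.22 and 3.53 times higher by library. It was the 1 gene of 2899 at least 2 times higher in every library (0.0345%). Gzmk, a granzyme of effector memory cells, was the 1 gene at least 2 times lower in every library (0.0345%). It was at 5.62 CPM with and 85.9 CPM without a member UMI, a ratio of 0.0655. The contrast follows the finer clusters in part, since the Gzmk cluster held 3.54% of the cells with and 26.0% of those without a member UMI. Within the CD8a positive cells of the 1098-cell cluster, a split added after the data were seen, Ikzf2 was at 81.7 CPM with and 14.2 CPM without a member UMI (342 and 599 cells, median 7931 and 7723 UMIs), higher in all 3 libraries. Gzmk was there at 1.47 and 11.98 CPM, on 4 and 55 UMIs. Other receptor genes of the NK complex followed without reaching 2 in every library. Klre1 was at 121 CPM with and 39.2 CPM without a member UMI, Klrc2 at 181 and 93.0 CPM, Klrc1 at 99.3 and 59.4 CPM, and Klrk1 (NKG2D) at 318 and 207 CPM. Cd160, Zcchc18, Rfc1 and Zfp318 were also among the 10 with the highest ratio in their lowest library, at pooled ratios of 1.37 to 1.68. After Gzmk the lower genes were Adam19, Inpp4b, Gzmb, Lgals3, Gm8369, Rbl2, Gzma, Tox and Pttg1, at pooled ratios of 0.223 to 0.691. Gzmb, a killing gene, was at 34.1 CPM with and 78.4 CPM without a member UMI, and Tox, a factor of stimulated T cells, at 29.7 and 82.6 CPM. Within the 1098-cell cluster Gzmb was at 27.9 and 61.4 CPM and Klre1 at 128 and 44.9 CPM, while Tox turned to 30.05 CPM with and 24.0 CPM without a member UMI, a ratio of 1.25 (0.931 to 1.68). Over the 5 NK receptors tested none passed, with a median log2 ratio of 0.74 against -0.0018 over all genes. By antibody the cells with a member UMI had a median of 269 CD44, 466 Ly-6C and 62 CD27 counts, against 229 CD44, 374 Ly-6C and 49 CD27 counts in cells without.

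Among the cells negative for both antibodies, 86 had a member UMI and 216 did not. This set was chosen after its values were seen. Trdc, the constant gene of the delta T cell receptor chain, was at 53.6 CPM in cells with and 304 CPM in cells without a member UMI. Tcrg-C1, a gamma chain gene, was at 7.94 and 122 CPM, and Trac, the alpha chain gene, at 417 and 297 CPM. Ikzf2 was at 347 and 263 CPM. Cells with a member UMI were thus lower in gamma delta receptor RNA and higher in Trac. The list of 6 T markers, which holds Trac, went the other way, at 3510 CPM with and 4108 CPM without a member UMI. Nothing is therefore read from Trac about the kind of T cell.

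The level of NK markers was read in the same cells. Ncr1, which defines NK cells, was at 824 CPM in NK-like and 3.9 CPM in memory T-like cells, and it was at 2.6 CPM in memory T-like cells with a member UMI and 4.4 CPM in those without. The 8 NK markers summed to 13411 CPM in NK-like cells (12254 to 14082 by library) and to 746 CPM in memory T-like cells (718 to 769), with none at 0, and to 877 CPM with and 687 CPM without a member UMI. Scrublet marked 7.63% of memory T-like cells with and 5.27% of those without a member UMI as doublets. Whether doublets or NK RNA from other cells gave some of the member UMIs there was not tested.

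In other cells the pooled values rested on few UMIs and on single libraries. Macrophage-like cells had 44.8 CPM, at 13.2, 61.3 and 78.6 CPM by library and 71.6 CPM without library 1. Without library 3 they had 28.7 CPM. Monocyte-like cells had 13.4 CPM, at 7.44, 3.41 and 27.3 CPM by library and 5.47 CPM without library 3. A small cluster of 118 cycling cells had 113 CPM, close to memory T-like cells, at 311, 62.1 and 66.0 CPM by library and 64.5 CPM without library 1. The activating share of member UMIs was 0%, 50% and 73.8% by library in macrophage-like cells and 32.3%, 72.4% and 71.2% in the cycling cells. In macrophage-like cells there were 35 UMIs of Klra8 against 7 of Ncr1, a ratio of 5 (2.19 to 13.3). All 35 came from libraries 2 and 3, with 4.67% of cells holding any member UMI. NK-like cells had a ratio of 0.871 (0.810 to 0.936), at 0.456, 0.801 and 1.05 by library. Other classes were above it too, with 4 (1.46 to 13.6) in monocyte-like and 1.78 (1.04 to 3.11) in B-like cells. Memory T-like cells had 1.38 (0.936 to 2.06) and the cycling cells 0.519 (0.345 to 0.771). The cause was not tested.

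Of the other Klra genes, Klra2 and Klra17 were highest outside NK-like and memory T-like cells, and Klra5, Klra6 and Klra10 were highest within them. Klra2 (Ly49B) was at 186 CPM in monocyte-like cells (196, 157 and 204 by library) and 60.6 CPM in neutrophil-like cells. Klra17 (Ly49Q) was at 209 CPM in a finer cluster of 39 cells with plasmacytoid dendritic cell markers. Klra6 was at 19.8 CPM in memory T-like cells (18.1, 17.3 and 31.2 by library) and at 16.8 CPM in NK-like cells (12.7, 25.7 and 14.8). The pooled ratio of NK-like to memory T-like cells was 0.85 (0.57 to 1.23), which does not set them apart. By library it changed direction, at 0.70 (0.185 to 1.90), 1.49 (0.724 to 2.76) and 0.475 (0.264 to 0.813), and NK-like cells were lower in library 3. Klra5 was at 11.7 CPM and Klra10 at 15.3 CPM in NK-like cells.

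Over the 22 clusters, the genes whose pattern was most like that of the family included Klrc2 (r = 0.928), Klrb1c (0.919), Klre1 (0.918), Klrc1 (0.908), Ncr1 (0.890), Gzma (0.884) and Ncald (0.871). The clusters share libraries and differ in depth and in number of cells, so r describes likeness only.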

How the data were processed

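The authors deposited 1 matrix of UMI counts per barcode, for genes and antibodies, written by Cell Ranger 5.0.1 on mm10, and their notes name Seurat. The deposited counts were used as they are. Barcodes with 300 to 5000 genes and at most 10% mitochondrial UMIs were kept. Cells were clustered with scanpy 1.11.5 and python-igraph 0.11.9 (Louvain, resolution 0.8) on 1991 variable genes, 20 components and 20 neighbours, without any Klra gene, and named by markers. Doublets were marked with Scrublet (504 cells, 2.5%) and kept. UMIs were summed per cell class and library and given as CPM with exact Poisson intervals. Shares have Clopper-Pearson intervals and ratios exact conditional intervals. A gene was called in a comparison when the ratio was at least 2 in the same direction in every library, with 0 set to a floor of 3 counts, among genes with at least 50 CPM (tertiles, member UMI) or 10 CPM (classes). Genes named beside the members are the other Klra genes, those of each list with the most UMIs, the 8 with the pattern most like the family and, by member UMI, the 10 in each direction whose least changed library moved most. Some genes that these rules name are not reported here. List genes named because they passed, the adaptors Tyrobp and Ptpn6, and the T cell receptor genes were chosen after their values were seen. Methods were tested on simulated data. The members and lists were chosen with earlier results of these data known. Promoters are from RefSeq GRCm38.p6 and transcripts from GENCODE. Protein sequences were not used here. Pooled mice within a library are not replicates.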

Additional observations from a re-analysis of the deposited data

How the results depend on the processing

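No paired analysis was possible because no column is tied to a group and each group had 1 library. Of the values compared under other settings for the 6 main results, 47 stayed within their interval and 19 moved. The ratios among them all stayed above 1, while the levels and the share have no direction that could reverse. For the single members 141 stayed and 57 moved, and no ratio whose interval excluded 1 changed side. The Klra1 tertile ratio, whose interval held 1, was 0.913 in the pool and 1.29 without library 1. The family level in NK-like cells (2354 CPM) was 1667 CPM with cells gated by antibody, 2483 CPM without Scrublet doublets, 2500 CPM after thinning to 1000 UMIs, 2694 CPM as a mean over cells and 2329 to 2373 CPM with each library left out. The share of NK-like cells with a member UMI (89.1%) was 74.2% by antibody gate, 77.7% after thinning to 1000 UMIs, 84.9% after thinning to 2000 UMIs, 84.2% where 2 UMIs were asked for and 86.4% to 89.8% with each library left out. The memory T-like level (114 CPM) was 123 CPM without the mitochondrial limit, 101 CPM by antibody gate, 138 CPM in the finer clustering and 107 to 123 CPM with each library left out. The ratio of memory to naive cells (21.4) lay between 17.4 and 27.7, and between 18.1 and 24.6 with each library left out. The tertile ratio of the family (1.66) was 1.40 by antibody gate, 1.48 after thinning, 1.44 as a mean over cells, 1.30 with the CD27 share as the axis and 1.37 to 1.74 with each library left out, lowest without library 3. Co-detection in NK-like cells (1.11) was 1.32 by antibody gate and between 1.06 and 1.15 otherwise. Across settings the tertile ratio was 2.72 to 5.01 for Klra9, 1.56 to 3.52 for Klra3, 1.30 to 1.99 for Klra8, 1.17 to 1.53 for Klra4, 0.592 to 0.893 for Klra7 and 0.554 to 1.29 for Klra1. The causes were not tested. The 69 NK-like cells of library 1 limit its values.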
